A study of Caenorhabditis elegans with 10 samples.

Results

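Fed adults of a mek-1 mutant strain were compared with fed adults of an mlk-1 mutant strain of the nematode Caenorhabditis elegans. The comparison took the 3 arrays labelled mek-1 fed and the 2 labelled mlk-1 fed, 5 of the 10 arrays of the series, and every probe set that is no array control (22548 of 22625). A probe set is a group of short probes for one transcript. Both groups were moved on adult day 2 to a new plate with the bacterial food OP50-1, kept there for 2 days and harvested as adults of day 4. The fasted arrays, 3 of mek-1 and 2 of mlk-1, came from animals moved at the same age to plates without food and are used here only to ask whether a strain difference was also seen off food. Each strain is labelled by its mutated gene, without an allele or a strain background, and no wild type enters the comparison, so a difference cannot be assigned to either strain. The labels do not say whether arrays of a group came from separate cultures, and each p therefore measures only the spread between these samples, which may be technical.

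MAP kinase cascades pass a signal through 3 kinases that phosphorylate one another in turn. In C. elegans, MLK-1 is the upstream kinase and MEK-1 the middle kinase of a cascade whose last kinase is KGB-1, a relative of the JNK kinases that is known for heavy metal stress and axon regrowth, and which the phosphatase VHP-1 holds in check. The p38 cascade, made of TIR-1, NSY-1, SEK-1, PMK-1 and the transcription factor ATF-7, is known for the defence of the intestine against bacteria, where it controls secreted proteins with CUB-like domains, lectins and lysozymes. SEK-1 and MEK-1 are kinases of the same tier, and mek-1 mutants have been studied in both settings.

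Array medians lay between 71.8 and 74.5 in linear intensity, and the lowest value of each array was just above 16, which is 4 on the log2 scale. Array mek-1 fed 3 stood apart from the other 4. It had a score of -48.3 on the first principal component (45.8% of the variance), against 0.76 and 8.5 for mek-1 fed 1 and 2 and 22 and 17 for mlk-1 fed 1 and 2. Body wall muscle markers were at their highest on that array, with a summed intensity of 11780 against 8056 and 5526 on the other mek-1 arrays and 4815 and 4768 on the mlk-1 arrays, and so were the markers of the hypodermis, the outer epidermis (13107 against 4325 to 5749 on the other mek-1 arrays and 3403 and 4897 on the mlk-1 arrays). Among the hypodermal markers wrt-10 was an exception. It read 6.92 (log2) on mek-1 fed 3, 7.25 and 6.77 on the other mek-1 arrays, and 7.80 and 7.77 on the mlk-1 arrays. Sums for pharynx, neurons, sperm, and spermatheca with sheath were also highest on mek-1 fed 3 (940, 4281, 681 and 232). Of their markers, 2 of 5, 1 of 7, 4 of 6 and 2 of 3 lay under 100 on all fed arrays. Markers not highest there were unc-18, rab-3, unc-31 and unc-119 (neurons), pqn-75 (pharynx), spe-11 (sperm) and lim-7 (sheath). The others in these groups were highest on mek-1 fed 3. Intestinal markers summed to 28620 on it, against 33947 and 34024 on the other mek-1 arrays and 33464 and 39048 on the mlk-1 arrays. Germline and oocyte markers were at their lowest there too (16180). The part of these shifts in the results below was not tested, other than by leaving the array out.

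Between the fed strains 36 probe sets passed an adjusted p of 0.05 in limma's moderated test, with Benjamini-Hochberg adjustment over all 22548 probe sets. That is 0.160% of those tested. In mek-1 animals 8 were higher (0.0355%) and 28 lower (0.124%), and 30 of the 36 are annotated to 1 gene, which gives 29 genes. Each of the 36 differed by at least 1.24 on the log2 scale, with no overlap between the arrays of the groups. At an unadjusted p under 0.05 there were 682 higher and 730 lower probe sets (6.26% together), and the median difference over all probe sets was -0.0042. In 4522 probe sets (20.1%) the arrays of the groups did not overlap, 2227 of them higher (9.88%) and 2295 lower (10.2%) in mek-1 animals. Calls depended on the few mlk-1 arrays: 10 of the 36 were still called when mlk-1 fed 1 was left out and 7 when mlk-1 fed 2 was, against 17, 18 and 34 when mek-1 fed 1, 2 or 3 was. Without the lowest 30% of probe sets by mean 34 of the 36 were still called, and with a higher group mean of at least 100 it was 32. Calls also depended on a constant added before the logarithm: 13 were still called with 16 added and 2, mek-1 and 1 sek-1 probe set, with 64 added. Both of these passed in every alternative that held them.

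**Figure D1:**
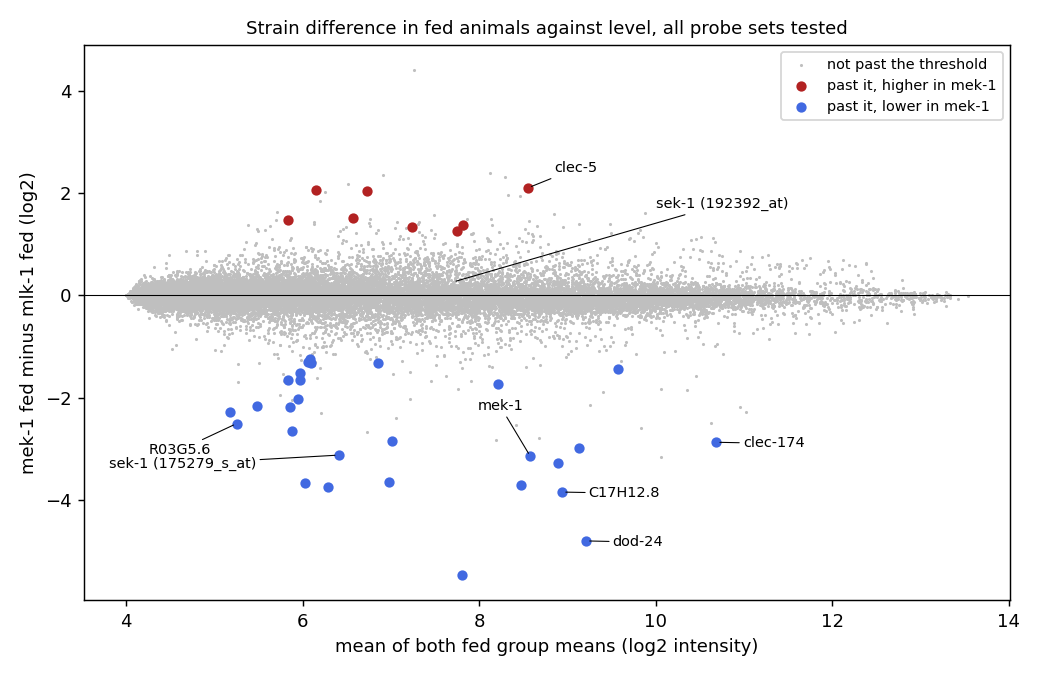
Strain difference (mek-1 fed minus mlk-1 fed, log2, vertical axis) against the mean of both fed group means (log2 intensity, horizontal axis) for the 22548 probe sets tested. Coloured points passed an adjusted p of 0.05 in limma's test, 8 above the zero line and 28 below it, and the 2 sek-1 probe sets lie far apart.

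The mek-1 probe set, for the gene of the MAP kinase kinase of the KGB-1 cascade, read 7.0, 7.12 and 6.90 (log2 intensity) in fed mek-1 animals, against 10.15 and 10.15 in fed mlk-1 animals. All 3 mek-1 arrays lay far below both mlk-1 arrays, and the difference was -3.15 ± 0.15 (log2, SE; limma, adjusted p = 0.000521), which is 8.86-fold lower. A second probe set is annotated to both mek-1 and F48E3.9, and it was lower by a difference of -2.02 ± 0.17 (adjusted p = 0.00817). The probe set of F48E3.9 alone read +0.12. Some mek-1 signal remained above the floor of the values in the mek-1 strain.

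The mlk-1 gene, which encodes the upstream kinase of the cascade, gave no check of the other strain's label. Its brighter probe set read 7.62, 7.62 and 7.22 in mek-1 animals, against 7.39 and 7.52 in mlk-1 animals, and a second one differed by 0.07 ± 0.17. The groups overlapped on both. Without a wild type, an unequal level was the only possible sign, and the place of the probes within the gene was not known here.

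Downstream of the pair, no transcript of the cascade passed the test between the strains. Of 11 measured genes of the KGB-1 cascade, mek-1 alone passed the test, and the median difference of the 11 was 0.06 against -0.0033 over all 17118 genes. The last kinase kgb-1 read 7.54, 7.60 and 7.59 in mek-1 animals, against 7.68 and 7.35 in mlk-1 animals, a difference of 0.06 ± 0.16. Its close relative kgb-2 differed by 0.15 ± 0.31 and the phosphatase gene vhp-1 by 0.06 ± 0.15 and 0.12 ± 0.20 on its 2 probe sets. The transcription factor genes fos-1 and jun-1 were the farthest from 0 among the rest: fos-1 differed by 0.50 ± 0.18 and 0.48 ± 0.16 and jun-1 by 0.28 ± 0.19 and 0.42 ± 0.16, with adjusted p of 0.518 or more in limma's test. On both fos-1 probe sets and the jun-1 set at 0.42 the mek-1 arrays all lay above the mlk-1 arrays, as in 9.88% of all probe sets. Of the JNK-1 cascade 0 of 4 genes passed, of the DLK-1 cascade 0 of 5 and of the ERK cascade 0 of 11, with 0 members at an unadjusted p under 0.05 in each. Over all genes 0.164% were called, and 3.11% were higher and 3.38% lower at an unadjusted p under 0.05. At those shares lists this small would hold few such members or none. In the JNK-1 cascade, the MAP kinase kinase gene jkk-1 differed by -0.10 and 0.09 and the kinase gene jnk-1 by 0.31 and 0.03 on their probe sets.

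**Figure D2:**
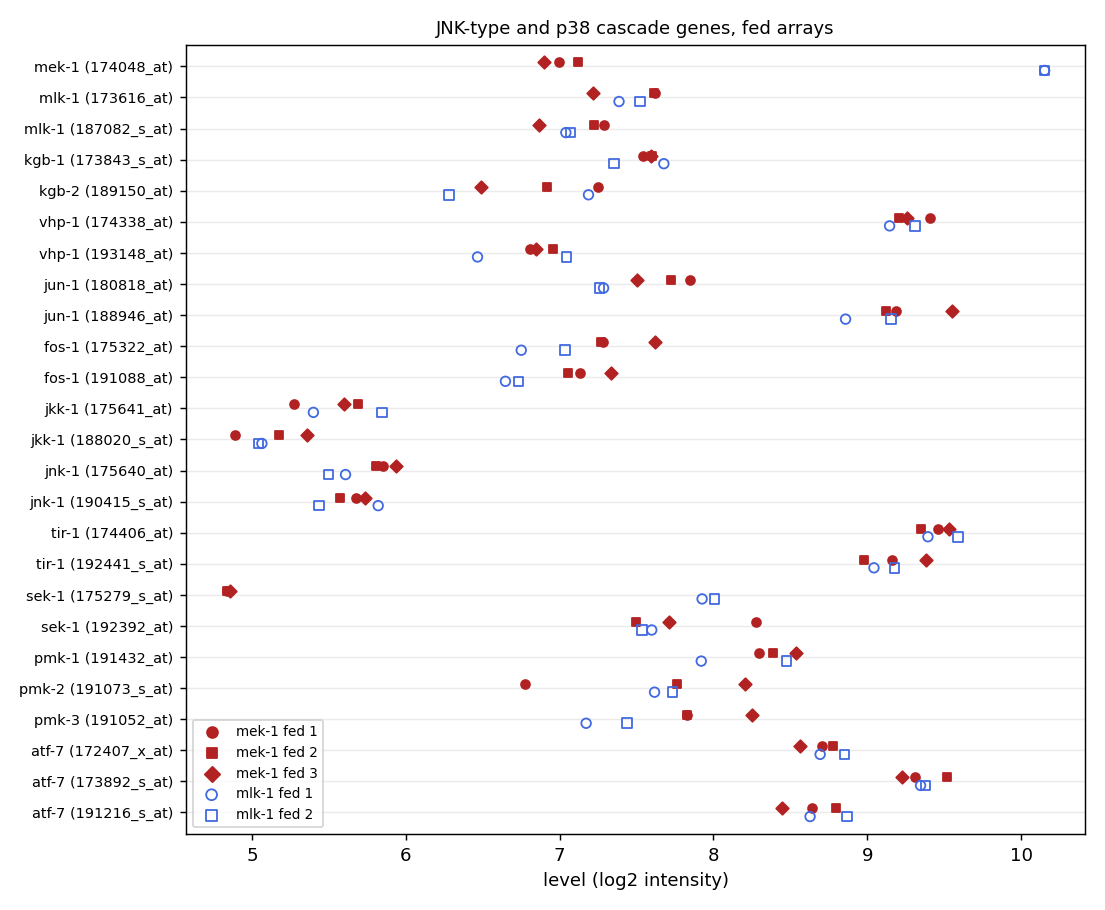
Log2 intensity (horizontal axis) of the JNK-type and p38 cascade genes on each fed array, 1 row per probe set, with filled symbols for mek-1 and open symbols for mlk-1. The mek-1 row and 1 of the 2 sek-1 rows are separated by about 3 log2 units, while the groups of most other rows touch or overlap.

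The p38 cascade held a second kinase transcript that differed as much as mek-1. Of the 2 sek-1 probe sets, for the MAP kinase kinase that activates PMK-1, 1 was dimmer over the 5 fed arrays, though not in mlk-1 animals alone. This dimmer set read 4.84, 4.84 and 4.86 in fed mek-1 animals, against 7.93 and 8.01 in fed mlk-1 animals. The difference was -3.12 ± 0.14 (adjusted p = 0.000521), and the values within each strain lay within 0.1 of each other. The brighter sek-1 probe set showed nothing of the kind: it read 8.28, 7.49 and 7.71 in mek-1 animals, against 7.60 and 7.54 in mlk-1 animals (0.26 ± 0.23, adjusted p = 1). The ID of the dimmer set ends in _s_at, which marks probe sets that can bind several transcripts, and where either set lies within sek-1 was not known here.

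The gene beside sek-1 in gene order (RefSeq, assembly WBcel235, chromosome X) also differed. R03G5.6 read 4.00 on all 3 mek-1 arrays, against 6.41 and 6.59 on the mlk-1 arrays (-2.50 ± 0.15, adjusted p = 0.00162). The mek-1 values stand at the floor, so that difference is limited by the floor. A second R03G5.6 probe set differed by -1.08, with an adjusted p of 0.102. Among the 100 measured protein-coding genes on each side of sek-1, 2 of 200 were called, both of them lower. Around mek-1, which also lies on chromosome X, it was 1 of 200, and around mlk-1 on chromosome V 0 of 200, against 0.161% of all placed genes. Chromosome X held only 3 called genes, mek-1 among them, so the stretches around sek-1 and mek-1 overlap and their counts are not separate. At an unadjusted p under 0.05 there were 19 around sek-1 (9.5%), 19 around mek-1 and 9 around mlk-1 (4.5%), against 8.5% of chromosome X, 6.14% of chromosome V and 6.58% of all placed genes.

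Among the remaining p38 genes no difference passed the test. Here 7 of 8 genes were measured and 0 called, with 1 at an unadjusted p under 0.05. Over all genes 0.164% were called, and 3.11% were higher and 3.38% lower at that unadjusted p. The sek-1 probe set that stands for the gene in counts is the brighter one over the fed arrays. The other set, brighter in mlk-1 animals, fell behind through its low mek-1 values, so the count of 0 leaves out its call. The kinase gene pmk-1 differed by 0.21 ± 0.20 and pmk-2, its neighbour and close relative, by -0.09 ± 0.37, the adaptor gene tir-1 by -0.04 ± 0.15 and 0.06 ± 0.17, and atf-7, which encodes a transcription factor that PMK-1 phosphorylates, by -0.12 to -0.01 over 3 probe sets. The p38 gene pmk-3 read 7.83, 7.83 and 8.25 in mek-1 animals, against 7.17 and 7.44 in mlk-1 animals; its groups did not overlap, at a difference of 0.66 ± 0.19 with an adjusted p of 0.405.

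The largest differences among the calls were all lower in mek-1 animals. Several belong to genes of secreted proteins with CUB-like domains, a family that was not counted as a list here. The dod-24 gene, a CUB-like gene first named as a target downstream of DAF-16, read 6.90, 7.46 and 6.07 in fed mek-1 animals, against 11.26 and 11.96 in fed mlk-1 animals. The gap between the groups was wider than the spread within either, at -4.80 ± 0.39 (log2, SE; adjusted p = 0.00667), or 27.8-fold lower. A probe set annotated to both dod-21 and cld-1, chosen after its values were seen, differed more: 4.94, 5.44 and 4.83 in mek-1 animals, against 9.92 and 11.16 in mlk-1 animals (-5.47 ± 0.36, adjusted p = 0.00233). The gene C17H12.8 read 7.46, 7.41 and 6.19 in mek-1 animals, against 10.43 and 11.29 in mlk-1 animals. Its difference was -3.84 ± 0.41 (adjusted p = 0.0229), and its second probe set gave -3.71 ± 0.40 (adjusted p = 0.0229).

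Next to one another on chromosome IV lie F55G11.8, dod-22 and F55G11.2, which also encode CUB-like proteins, and all 3 were lower. F55G11.8 read 4.21, 4.61 and 4.43 in mek-1 animals, against 7.69 and 8.62 in mlk-1 animals (-3.74 ± 0.27, adjusted p = 0.00414). The dod-22 gene read 4.00, 4.37 and 4.22 in mek-1 animals, against 7.19 and 8.53 in mlk-1 animals (-3.66 ± 0.35, adjusted p = 0.0141). F55G11.2 read 4.98, 4.81 and 5.67 in mek-1 animals, against 8.18 and 9.44 in mlk-1 animals (-3.66 ± 0.39, adjusted p = 0.0229). The mek-1 values of the first 2 sit near the floor of 4. Their clone held 10 measured genes, of which only these 3 were called lower and 0 were called higher. The other neighbours differed among themselves: mbug-1, chosen after its values were seen, differed by -2.19 ± 0.51 (adjusted p = 0.263), while F55G11.7 differed by 0.16 ± 0.15.

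Of these probe sets, that of dod-21 and cld-1 and that of F55G11.8 passed without any single array. The call of dod-24 was lost without mlk-1 fed 1 (adjusted p = 0.0522) and mlk-1 fed 2 (0.116), and that of C17H12.8 likewise (0.13 and 0.271). The dod-22 call was lost without mek-1 fed 1 (0.0543), and that of F55G11.2 without mek-1 fed 1 (0.081), mek-1 fed 2 (0.0653) and mlk-1 fed 2 (0.116). None of these differences changed sign.

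A run of 4 adjacent genes on chromosome IV, F49F1.1 to F49F1.7, was lower as well. Its first gene, drd-50, read 7.33, 7.57 and 8.0 in mek-1 animals, against 10.14 and 11.10 in mlk-1 animals (-2.99 ± 0.31, adjusted p = 0.0208). F49F1.5 read 5.11, 4.89 and 5.02 in mek-1 animals, against 6.58 and 6.74 in mlk-1 animals (-1.65 ± 0.15, adjusted p = 0.0128). For mul-1, which encodes a mucin-like protein, the values were 4.59, 4.71 and 4.99 in mek-1 animals, against 6.59 and 7.30 in mlk-1 animals (-2.18 ± 0.24, adjusted p = 0.0229). In each of the 3, both mlk-1 arrays lay at least 1 log2 unit above the highest mek-1 array. F49F1.7 differed by -2.84 ± 0.32 (adjusted p = 0.0246). The other 7 measured genes of the clone lay between -0.24 and 0.41. All 4 calls were lost without mlk-1 fed 2 (adjusted p of 0.116 to 0.179), that of F49F1.5 also without mlk-1 fed 1 (0.13), that of mul-1 also without mlk-1 fed 1 (0.0517), mek-1 fed 1 (0.0879) and mek-1 fed 2 (0.0734), that of drd-50 also without mek-1 fed 1 (0.0694) and mek-1 fed 2 (0.0653), and that of F49F1.7 also without mek-1 fed 1 (0.0879) and mek-1 fed 3 (0.0542).

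Beyond these clusters, clec-174, a C-type lectin gene, was the brightest probe set that was lower. Its ID ends in _x_at, so it can bind several transcripts. It read 9.58, 8.94 and 9.24 in mek-1 animals, against 12.01 and 12.23 in mlk-1 animals (-2.87 ± 0.21, adjusted p = 0.00414). Without mlk-1 fed 1 its adjusted p was 0.0522 and without mlk-1 fed 2 it was 0.116. F54F7.2 read 7.85, 7.51 and 6.41 in mek-1 animals, against 10.59 and 10.46 in mlk-1 animals (-3.27 ± 0.38, adjusted p = 0.0274), with array mek-1 fed 3 the lowest. Its call was lost without mek-1 fed 2 (0.0682), mlk-1 fed 1 (0.283) and mlk-1 fed 2 (0.313). T27A1.2 differed by -1.65 ± 0.21 (adjusted p = 0.0384), a call lost without mek-1 fed 1 (0.104), mek-1 fed 2 (0.0778), mlk-1 fed 1 (0.317) and mlk-1 fed 2 (0.281).

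The remaining 8 lower probe sets have several symbols or none or lie outside the naming rule, and were chosen after their values were seen. Their differences ran from -2.66 to -1.32, with adjusted p of 0.00225 to 0.0425. M04C3.1 read 4.11, 4.00 and 4.00 in mek-1 animals, at the floor, against 6.27 and 6.37 in mlk-1 animals. Y102A5C.6, a pseudogene in RefSeq and the brightest of the 8, read 9.04, 8.86 and 8.67 in mek-1 animals, against 10.33 and 10.26 in mlk-1 animals (-1.43 ± 0.16, adjusted p = 0.0274). All 8 calls were held when mek-1 fed 3 was left out, 3 when mek-1 fed 1 was and 3 when mek-1 fed 2 was. M04C3.1 alone kept its call when mlk-1 fed 1 was left out (0.0373), and none did for mlk-1 fed 2, where its adjusted p was 0.066.

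**Figure D3:**
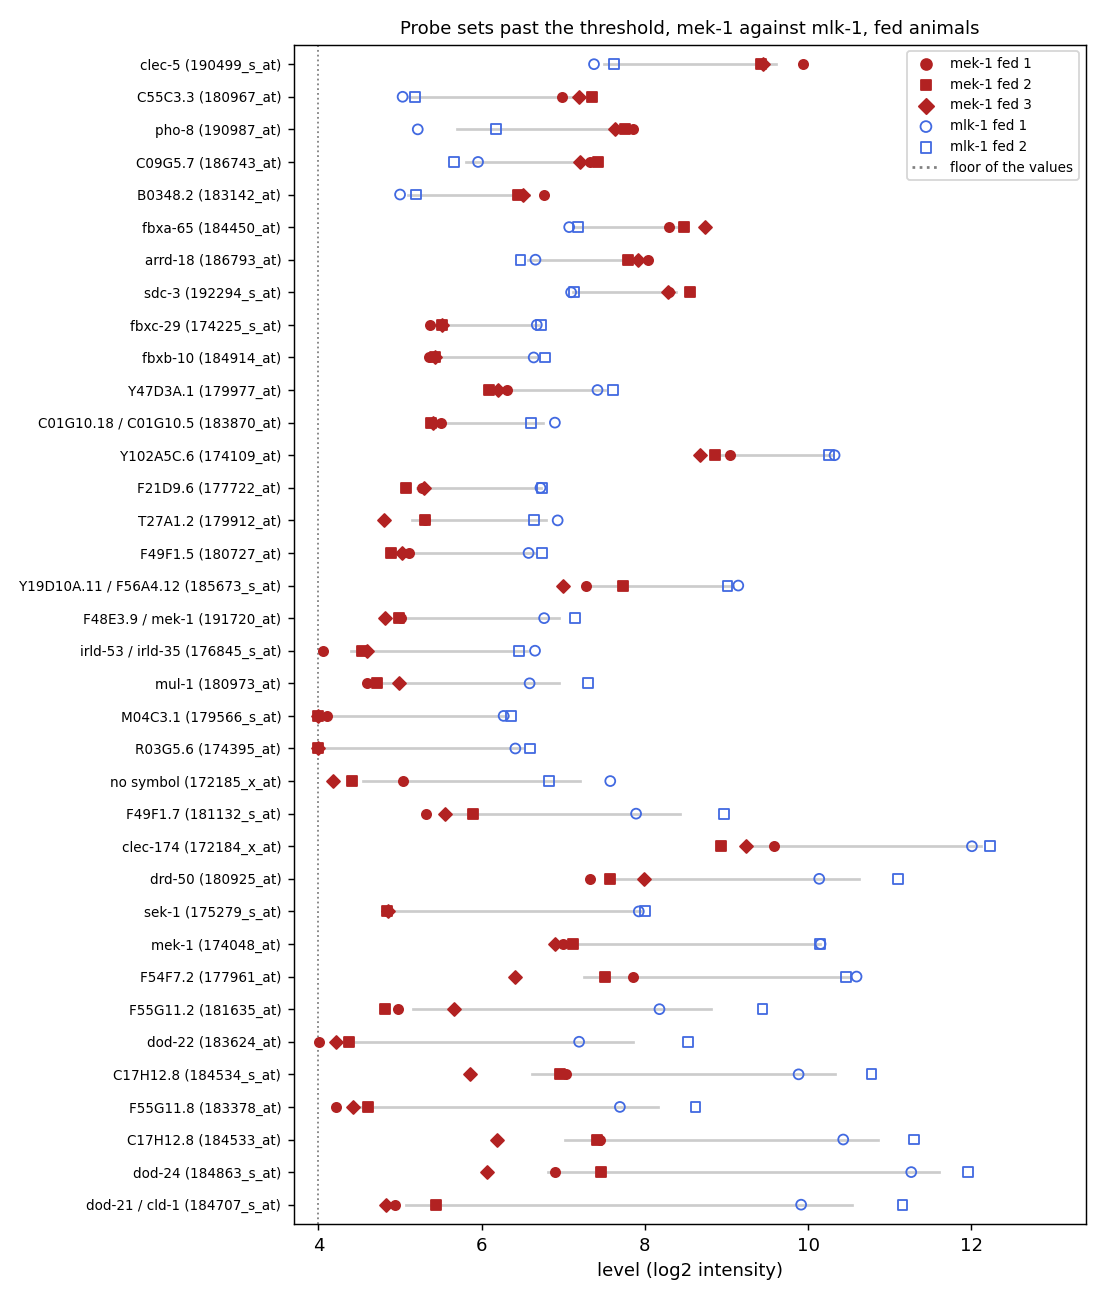
Log2 intensity (horizontal axis) on each of the 5 fed arrays for the 36 probe sets past an adjusted p of 0.05, ordered by difference from the 8 that were higher to the 28 that were lower in mek-1 animals. Filled symbols are mek-1 arrays, open symbols mlk-1 arrays, grey lines join the group means and the dotted line marks the floor of the values, which several mek-1 values touch.

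Genes known to depend on the p38 cascade for their expression were taken as a list of 20, of which 19 were measured with a probe set of their own. Here 4 were lower in mek-1 animals (dod-24, C17H12.8, dod-22 and mul-1) and 0 were higher, against 0.117% and 0.0467% of all genes. The median difference of the 19 was -1.09, against -0.0033 over all genes. In 11 the mek-1 arrays all lay below the mlk-1 arrays and in 3 they all lay above, against 10.2% and 9.88% of all probe sets. The other 15 did not pass, among them a lectin gene that was higher and a reporter gene on which array mek-1 fed 3 stood apart. The lectin gene clec-60 read 9.39, 8.73 and 9.77 in mek-1 animals, against 7.60 and 7.08 in mlk-1 animals (1.96 ± 0.31, adjusted p = 0.076). The sysm-1 gene (T24B8.5), a widely used reporter of PMK-1 activity, read 10.12, 10.65 and 7.37 in mek-1 animals, against 11.45 and 12.28 in mlk-1 animals (-2.49 ± 0.86, adjusted p = 0.575), and without mek-1 fed 3 the difference was -1.48 (0.188). Both were picked with their values in view. The list's count was 1 when either mlk-1 array was left out, 2 when mek-1 fed 1 was and 6 when mek-1 fed 3 was, and its median -1.68 when mlk-1 fed 1 was left out and -0.50 when mlk-1 fed 2 was.

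Of the other immune families, the C-type lectins alone held calls. Of 220 C-type lectin genes 1 was higher and 1 lower, against 0.0467% and 0.117% of all genes, with a median of 0.02. In 24 the mek-1 arrays all lay above and in 24 all below the mlk-1 arrays, close to the 9.88% and 10.2% of all probe sets. Lectin genes with an unadjusted p under 0.05 were 6 higher and 11 lower. Of 16 lysozyme genes, 18 saposin-like genes, 26 epidermal antimicrobial peptide genes and 23 pals genes none passed, and the medians lay between -0.07 and 0.08. At an unadjusted p under 0.05 there were 1 higher and 1 lower lysozyme gene, 3 higher and 0 lower saposin-like genes, 2 higher and 3 lower epidermal peptide genes and 0 pals genes, against 3.11% higher and 3.38% lower over all genes. A difference between these families and the p38-dependent list was not tested.

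Of the 8 probe sets higher in mek-1 animals, clec-5 was the brightest and had the largest difference. This C-type lectin gene read 9.94, 9.43 and 9.45 in mek-1 animals, against 7.38 and 7.62 in mlk-1 animals (2.10 ± 0.20, adjusted p = 0.0141), or 4.30-fold higher. C55C3.3 read 6.99, 7.35 and 7.19 in mek-1 animals, against 5.03 and 5.19 in mlk-1 animals (2.07 ± 0.17, adjusted p = 0.00667). The acid phosphatase family gene pho-8 read 7.85, 7.75 and 7.64 in mek-1 animals, against 5.22 and 6.18 in mlk-1 animals (2.05 ± 0.27, adjusted p = 0.0497). In all 3 the groups stood over 1 log2 unit apart. The other calls were smaller: C09G5.7 at 1.51 ± 0.16, the F-box gene fbxa-65 at 1.38 ± 0.18, the arrestin-domain gene arrd-18 at 1.35 ± 0.16, and sdc-3, a zinc finger gene of dosage compensation and sex determination, at 1.26 ± 0.16, with adjusted p of 0.0229 to 0.0425. B0348.2, dimmer than the naming rule allows and chosen after its values were seen, differed by 1.48 ± 0.17 (adjusted p = 0.0246). Just outside the threshold, dyf-3, a gene of cilium formation, differed by 1.34 ± 0.18 (adjusted p = 0.0504), C04E12.4 by 1.02 ± 0.14 (0.0549) and F35F10.4 by 1.38 ± 0.19 (0.0564).

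No call among the higher probe sets held in each of the 5 fits that leave out an array. Those of clec-5 and C55C3.3 were lost without mlk-1 fed 1 (0.192 and 0.123) and mlk-1 fed 2 (0.116 for each), and that of pho-8 held only without mlk-1 fed 2 (0.045). The other 5 held only without mek-1 fed 3, where their adjusted p ran from 0.0261 to 0.0386.

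F-box genes, whose products choose proteins for breakdown by ubiquitin ligases built on cullins and Skp1, leaned to lower values at small sizes. Of 310 measured, 2 were lower, fbxb-10 (-1.30 ± 0.14, adjusted p = 0.0245) and fbxc-29 (-1.24 ± 0.14, adjusted p = 0.0275), and 1 was higher, fbxa-65 above. The fbxb-10 values were 5.36, 5.43 and 5.43 in mek-1 animals, against 6.64 and 6.78 in mlk-1 animals. All 3 calls were held without mek-1 fed 3 and lost without each of the other 4 arrays. Over all genes 0.117% were called lower and 0.0467% higher. The family's median was -0.09. The mek-1 arrays all lay below the mlk-1 arrays in 90 genes and all above in 22, against 10.2% and 9.88% of all probe sets. At an unadjusted p under 0.05, 49 members (15.8%) were lower and 9 (2.90%) higher, against 3.38% and 3.11% of all genes, and without each array in turn the lower share ran from 10.6% to 19.4%.

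The 25 Skp1-related and cullin genes had 0 calls. Their median was -0.16, and in 12 of them the mek-1 arrays all lay below the mlk-1 arrays and in 0 all above, against 10.2% and 9.88% of all probe sets. Of the 25, 8 were lower at an unadjusted p under 0.05, against 3.38% of all genes. Without mek-1 fed 3 the median was -0.07, and without mlk-1 fed 2 the lower count was 5. The farthest, chosen after its values were seen, was skr-21, a Skp1-related gene that read 7.15, 6.93 and 6.69 in mek-1 animals, against 7.98 and 8.23 in mlk-1 animals (-1.18 ± 0.19, adjusted p = 0.076). The neighbours skr-8 and skr-9 differed by -0.98 and -1.03 on probe sets ending in _x_at, which can bind several transcripts.

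Body wall muscle genes lay higher in mek-1 animals, with none past the threshold. All 16 measured members had a positive difference, from 0.24 to 1.38 with a median of 0.89, and in 15 the mek-1 arrays all lay above the mlk-1 arrays, against 9.88% of all probe sets. The largest was unc-54, the major myosin heavy chain, at 8.83, 8.10 and 9.57 in mek-1 animals, against 7.44 and 7.47 in mlk-1 animals (1.38 ± 0.37, adjusted p = 0.365). The troponin gene mup-2 read 9.43, 8.65 and 9.91 in mek-1 animals, against 7.89 and 8.04 in mlk-1 animals (1.36 ± 0.33, adjusted p = 0.279). Array mek-1 fed 3 was the highest in 14 of the 16. Without it the median was 0.68 and 10 members had an unadjusted p under 0.05, against 13 with it and 2 without mlk-1 fed 2. In bulk RNA, more muscle per animal cannot be told apart from more RNA per muscle cell. The 145 cuticle collagen genes, products of the hypodermis, had 0 calls and a median of 0.35, with 9 (6.21%) higher at an unadjusted p under 0.05, against 3.11% of all genes. With mek-1 fed 3 left out the median was 0.16 and the count 3. Leaving out mlk-1 fed 1 gave 0.10 and 0, leaving out mlk-1 fed 2 gave 0.66 and 34, and for mek-1 fed 2 the count was 40.

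**Figure D4:**
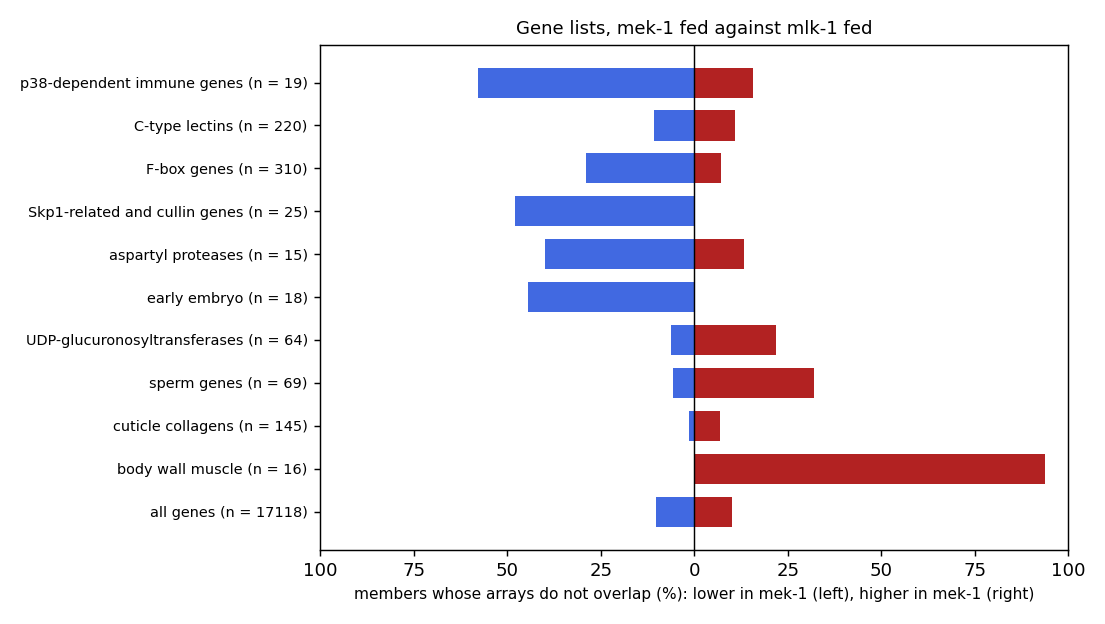
Share of each list's measured genes (%) whose mek-1 fed arrays all lay below (left, blue) or all above (right, red) the mlk-1 fed arrays, with all 17118 genes at the bottom. Over all genes the counts are 1757 and 1713, p38-dependent immune genes and Skp1-related genes lie mostly to the left and body wall muscle genes to the right, and the calls in each list are given in the text.

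Genes expressed in early embryos had 0 calls among 18 and a median of -0.30. At an unadjusted p under 0.05, 6 (33.3%) were lower, against 3.38% of all genes, and in 8 the mek-1 arrays all lay below the mlk-1 arrays, against 10.2% of all probe sets. Without mlk-1 fed 2 the median was -0.18 and 3 were lower, and without mek-1 fed 1 it was 4. Yolk, ribosomal protein and proteasome genes had 0 calls, with medians of -0.0009 over 5 vitellogenins, -0.01 over 75 cytosolic ribosomal protein genes and -0.05 over 33 proteasome genes. Of these, 0 had an unadjusted p under 0.05, against 3.11% higher and 3.38% lower over all genes. The members ran from -0.07 to 1.13 among the vitellogenins, with vit-1 highest, from -0.18 to 0.29 among the ribosomal protein genes and from -0.21 to 0.16 among the proteasome genes. The vit-1 gene, chosen after its values were seen, read 11.35, 11.31 and 10.99 in mek-1 animals, against 8.82 and 11.36 in mlk-1 animals, so that 1 mlk-1 array stood apart. In all, 10 of the 3359 genes in any list were called, while 0.164% of all genes were. The count of 10 was 5 without mek-1 fed 1, 21 without mek-1 fed 3 and 2 when one or the other mlk-1 array was left out.

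No fasting or stress reporter gene named here passed the test between the fed strains. The acyl-CoA synthetase gene acs-2, which rises on fasting, read 8.26, 7.84 and 8.94 in mek-1 animals, against 9.63 and 6.97 in mlk-1 animals, and the mlk-1 arrays thus lay on either side of all mek-1 arrays (0.05 ± 0.69). The stearoyl-CoA desaturase gene fat-7 differed by 0.42 ± 0.35 and the superoxide dismutase gene sod-3 by 0.10 ± 0.17. The metallothionein gene mtl-1, a metal-binding protein gene, read 9.81, 9.40 and 6.41 in mek-1 animals, against 11.60 and 10.67 in mlk-1 animals. Both mlk-1 arrays were above all mek-1 arrays, yet the spread within mek-1 left a difference of -2.59 ± 0.90 with an adjusted p of 0.595. Without mek-1 fed 3 it was -1.53 (0.191). Among 14 metal response genes 0 were called, against 0.164% of all genes. At an unadjusted p under 0.05, 1 was higher and 2 were lower, against 3.11% and 3.38% of all genes.

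By chromosome, the share of genes called was described without a test. Of the 28 genes called with 1 probe set per gene, 26 are protein-coding in RefSeq and were placed among 16163 such genes (0.161%), while the pseudogenes F21D9.6 and Y102A5C.6 on chromosome V were left out. Chromosome IV held 11 of the 26, 1 higher and 10 lower, out of 2538 measured (0.433%), and chromosome I held 0 of 2396 with 116 at an unadjusted p under 0.05. On chromosome V 5 were higher and 1 lower of 3957, on II 1 higher and 3 lower of 2830, on III 1 higher and 1 lower of 2182, and on X 3 lower of 2260. Of the 10 lower genes on chromosome IV, 7 belong to the runs F49F1 and F55G11 above.

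The fasted arrays were then asked whether the same strain difference was present off food. There 421 probe sets were called (1.87%), 55 higher and 366 lower in mek-1 animals (140 calls if mek-1 fasted 1 was left out, 52 if mlk-1 fasted 1 was and 43 if mlk-1 fasted 2 was). Of the 36 fed calls, 27 were also called in fasted animals, all with the same sign, which is 75% of the fed and 6.41% of the fasted calls. Equally numbered mek-1 arrays deviated together across food states, so the sets cannot be taken as independent. For mlk-1 the arrays were too few to tell. The kinase transcripts were in this group: mek-1 read 6.08, 6.05 and 6.18 in fasted mek-1 animals, against 10.40 and 10.44 in fasted mlk-1 animals (-4.31, adjusted p = 7.6e-06), and the dimmer sek-1 probe set read 4.89, 5.17 and 5.35 against 8.33 and 8.39 (-3.22, adjusted p = 9.04e-05). R03G5.6, C17H12.8, clec-174, F54F7.2, clec-5 and C55C3.3 were called in both food states too. C55C3.3 differed by 2.07 in fed and 1.95 in fasted animals, and clec-174 by -2.87 and -2.13.

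The change of the strain difference with food was tested itself, as the fed difference minus the fasted one, in a fit of all 10 arrays. It passed for 18 probe sets (0.0798%), 13 with a positive and 5 with a negative change, and for 59 with each fed array and its equally numbered fasted array as a block. All 18 passed in both fits. Of the 36 fed calls 7 were among the 18, and with the block 11 of the 36 passed, the additional ones being drd-50 (adjusted p = 0.0282), F49F1.7 (0.0107), pho-8 (0.0361) and a probe set without a symbol (0.0181). The probe set of dod-21 and cld-1 changed by -5.32 ± 0.59 (adjusted p = 0.0097), F55G11.2 by -3.81 (0.0219), F55G11.8 by -3.01 (0.0143) and dod-22 by -3.0 (0.0402). In fasted mek-1 animals F55G11.8 read 4.05, 4.00 and 4.17 and dod-22 4.20, 4.24 and 4.10, near the floor, which limits their fasted differences. In fed mlk-1 animals the probe set of dod-21 and cld-1 stood at 9.92 and 11.16, and in fasted mlk-1 animals at 5.06 and 5.50, where fasted mek-1 animals had 4.81, 4.69 and 5.92, and the strains overlapped. F49F1.5 changed by -1.53 (0.00836). For dod-24 the strain difference was -4.80 in fed and -1.92 in fasted animals, a change of -2.88 that did not pass (adjusted p = 0.163). B0348.2, with differences of 1.48 in fed and -0.22 in fasted animals, changed by 1.70 (0.0217), and mek-1 by 1.17 (0.0328), since its difference was larger off food. Leaving out single arrays moved the count of 18 to between 6, for mlk-1 fasted 1, and 34, for mlk-1 fed 2. It was 7 when mek-1 fed 1 was left out, 9 for mek-1 fasted 1, 11 for mek-1 fasted 3 and 8 for mlk-1 fasted 2.

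**Figure D5:**
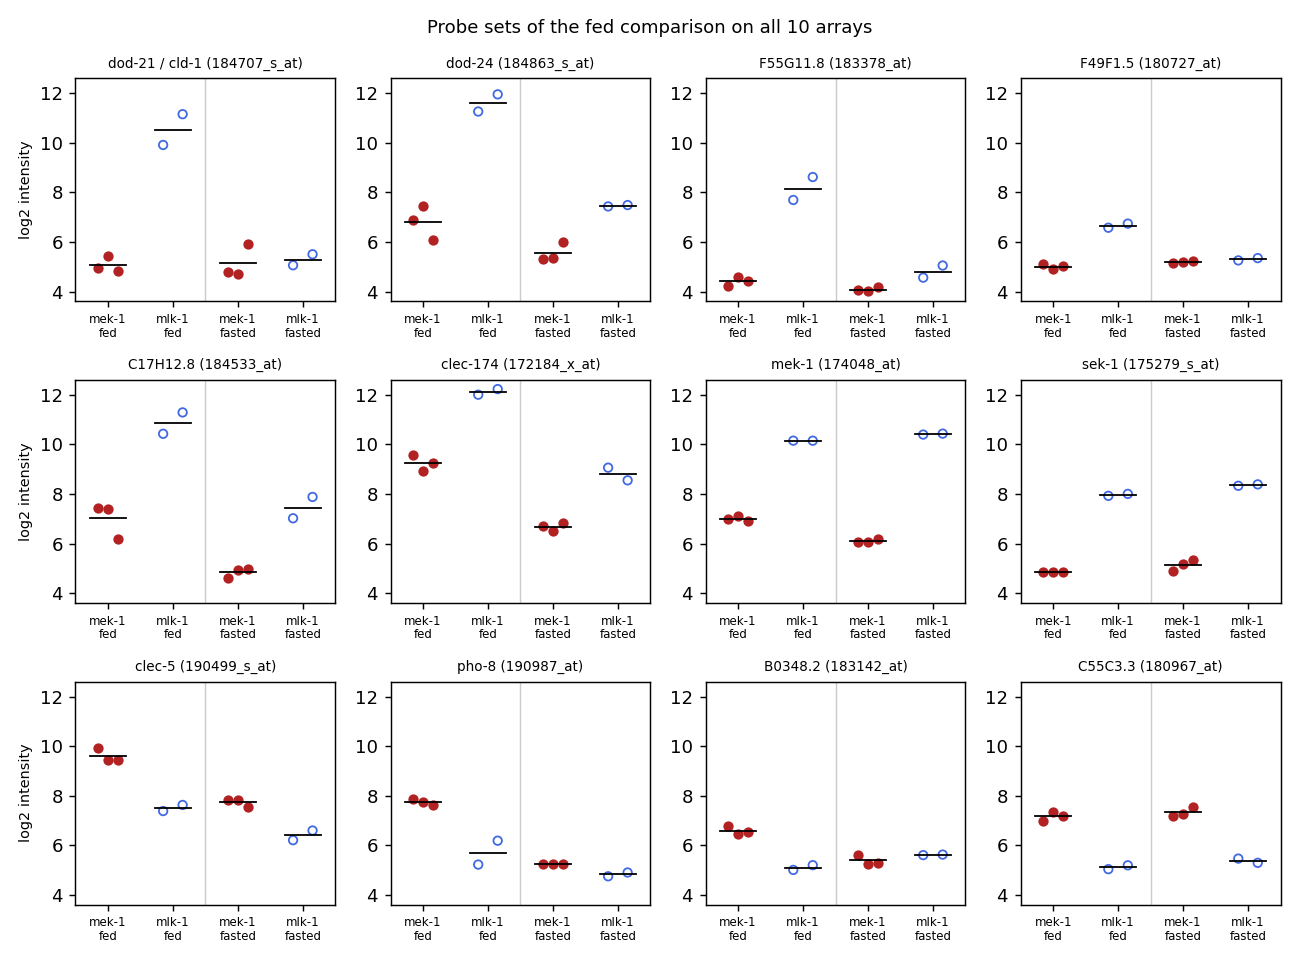
Log2 intensity (vertical axis) of 12 probe sets called in the fed comparison, on each array of mek-1 fed, mlk-1 fed, mek-1 fasted and mlk-1 fasted animals, with black lines at the group means. For the probe set of dod-21 and cld-1 the fed strains are 5.47 log2 units apart and the fasted strains overlap, while sek-1, C17H12.8 and C55C3.3 are separated in both food states.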

How the data were processed

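Per the labels' protocols, RNA isolated with Trizol received a biotin label in a 3' in vitro transcription reaction. It was hybridised to single-colour arrays of the Affymetrix type. The deposited values are linear intensity, already summarised by the authors to a single value for each probe set of an array. How the authors summarised and normalized them is not given in the sources here, and no detection calls were used. No column of the table was without a sample. The number of arrays limits the precision, and dim probe sets are limited by the floor just above 16.

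Values were taken as log2 without a constant. The 77 control rows were left out. Through GEO's platform annotation 20766 of the 22548 probe sets tested have 1 gene symbol, 887 have more than 1 and 895 lack one, and 20701 of those with 1 symbol matched a RefSeq gene (assembly WBcel235), from which gene order was taken. Probe sets with several symbols are named by all of them. Some sets named by 1 symbol end in _s_at or _x_at and can bind several transcripts. Those of dod-24, clec-174, F49F1.7, clec-5, fbxc-29 and sdc-3 are among them. For counts of genes, each was represented by its brightest probe set on the fed arrays (17118 genes).

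The fed comparison was fitted with limma 3.58.1 (R 4.3.3; functions lmFit and eBayes) to the 5 fed arrays, which left 3 residual degrees of freedom beside 4.64 from the prior, the fasted one to the 5 fasted arrays, and the change with food to all 10 as group means. Tests were two-sided, with Benjamini-Hochberg adjustment over all probe sets tested and a threshold of 0.05. Differences are mek-1 minus mlk-1 on the log2 scale, with limma's standard error. An exact permutation test of 3 arrays against 2 could not go below 0.1 and was not used. The fit was tested on simulated data with known changes. Plots used matplotlib 3.10.9 under Python 3.11.15.

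Named genes are those with 1 symbol past the threshold, without overlap between groups and with a higher group mean of at least 100 (the 15 largest each way, filled up to 10 by smallest p), up to 4 called members per list, called neighbours of mek-1 and sek-1, and 20 cascade and reporter genes named in any case, of which nsy-1 has no probe set of its own. Other genes are said to be chosen after their values were seen. The groups compared, the 48 gene lists, the cell type markers and the rule were chosen with earlier results of these data known. Lists are described by counts and medians without a test.

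Equal replicate numbers were checked by correlating deviations from group means. In mek-1, equally numbered fed and fasted arrays gave r of 0.407, 0.639 and 0.555, against -0.522 to -0.022 for unequal numbers, so there the numbers went with a shared deviation. In mlk-1 equal numbers gave 0.320 and crossed ones -0.320. With 2 arrays per group these are a single value, too little to take the mlk-1 arrays as paired. The reported fit of the change with food has no block of equally numbered arrays, and the fit with that block, in both strains, stands beside it as an alternative. Alternatives changed the constant, normalization, filter, variance model, array weights, arrays in the fit, probe sets, minimum change, replicate block and single arrays. Leaving out both mek-1 arrays numbered 3 was added after seeing the data.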

Additional observations from a re-analysis of the deposited data

Results flagged for a closer look

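For 7 of the 36 probe sets called in fed animals, the strain difference also changed with food in a direct test (limma on all 10 arrays, fed difference minus fasted difference, adjusted p under 0.05). All values here are log2, and 18 of 22548 probe sets passed that test. The probe set shared by dod-21 and cld-1 had a strain difference of -5.47 in fed and -0.14 in fasted animals, a change of -5.32 (adjusted p = 0.0097). F55G11.2 had -3.66 in fed and 0.15 in fasted animals, a change of -3.81 (0.0219). F55G11.8 had -3.74 and -0.73, a change of -3.01 (0.0143), and dod-22 -3.66 and -0.66, a change of -3.0 (0.0402). The fasted mek-1 values of these 2 stood near the floor of 4, so their fasted differences are limited by it. The dod-22 probe set was also called in limma's test of the fasted arrays (adjusted p = 0.0456). F49F1.5 had -1.65 and -0.12, a change of -1.53 (0.00836).

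In these 5 the fasted mlk-1 arrays lay below the fed mlk-1 arrays: F55G11.8 read 4.56 and 5.05 in fasted mlk-1 animals, against 7.69 and 8.62 in fed mlk-1 animals. B0348.2 had a strain difference of 1.48 in fed and -0.22 in fasted animals, a change of 1.7 (0.0217). The mek-1 probe set had -3.15 in fed and -4.31 in fasted animals, a change of 1.17 (0.0328), which left it lower in mek-1 animals in both food states.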

How the results depend on the processing

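The fed count of 36 (8 higher, 28 lower) was 39 with quantile normalization, 36 with median centring or a minimum change of 2-fold, 45 without the lowest 30% by mean, 50 with a higher group mean of at least 100 and 27 with 1 probe set per gene. It was 13 with 16 added before the logarithm, 2 with 64 added and 22 without probe sets ending in _s_at or _x_at, and 102 with a trended and robust variance, 171 with array weights, 153 with all 10 arrays in the fit and 199 without both mek-1 arrays numbered 3. Without single arrays it ran from 7 (mlk-1 fed 2) to 68 (mek-1 fed 3). The lower share, 77.8%, was 92.3% with 16 added, 100% with 64 added, 68.4% with array weights and 61.3% without the arrays numbered 3. The number of list members called, 10, was 3 with 16 added, 1 with 64 added, 6 without the _s_at and _x_at probe sets, 31 with the trended variance, 47 with array weights, 42 with all 10 arrays and 55 without the arrays numbered 3, and 2 to 21 without single arrays. Fasted calls, 421, were 358 with all 10 arrays and 43 to 555 without single arrays. Calls for the change with food, 18, were 17 with 16 added and 6 to 34 without single arrays. With the replicate number as a block, the counts were 203 for fed (57.1% lower), 1917 for fasted, 59 for the change with food and 61 list members, and no call of the 36 was lost. The fed strains share only 2 numbers. Their equally numbered arrays correlated at 0.288 and 0.140 and the crossed ones at -0.288 and -0.140. The labels do not say what a number marks, and 2 pairs were too few to take the strains as paired. Over 18 alternatives none of the 36 probe sets changed sign, and each kept its call in at least 9. The cause of these shifts was not tested.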

Other observations

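Some of the largest fed differences did not pass the test with array mek-1 fed 3 in the fit. All were chosen after their values were seen. A probe set shared by the saposin-like genes spp-21 and spp-9 read 11.88, 11.09 and 5.41 (log2 intensity) in mek-1 animals, against 5.09 and 5.02 in mlk-1 animals. The difference was 4.41 ± 1.65 (adjusted p = 0.663), and 6.44 without mek-1 fed 3 (adjusted p = 0.00121). The cathepsin B-like protease gene cpr-5 read 10.22, 9.60 and 8.11 in mek-1 animals, against 6.96 and 6.89 in mlk-1 animals, a difference of 2.39 ± 0.53 (adjusted p = 0.225), and 2.99 without that array (0.0114). C44B7.5 differed by -3.16 ± 0.70 (0.225), and by -2.31 without it (0.00548). The lectin gene clec-67 differed by -2.67 ± 0.53 (0.168) and by -3.20 without it (0.0366). For ech-9, named as an enoyl-CoA hydratase gene, the difference was -2.39 ± 0.36 (0.0667), and -2.0 without it (0.0166). Others of the 10 largest did not pass without that array: nlp-39 differed by -2.78 (0.164) and by -2.19 without it (0.0657), C54C8.12 by -2.53 (0.42) and -1.66 (0.0828), and mtl-1 and sysm-1 had adjusted p of 0.191 and 0.188. A probe set without a symbol differed by -2.82 (0.0504) and by -2.43 without it (0.019).

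Genes whose strain difference changed with food but which were not called in fed animals included clx-1, which differed by 0.02 in fed and -5.99 in fasted animals (change 6.01), and smf-2, a metal transporter gene, at -0.10 and -3.31 (change 3.21). The insulin-like gene ins-11 differed by 0.06 in fed and -2.17 in fasted animals (change 2.23). On the fed arrays these 3 showed overlapping groups.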
